A study of Mus musculus with 66 samples.

Results

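C2C12 cells without a transgene (WT) were compared with 9 C2C12 lines that each carry a GFP-tagged histone H3. The comparison used mRNA-Seq values of 22489 genes. For WT there was 1 growth library and 1 differentiated library, and for the lines there were 18, 1 per line and state, out of 66 samples in the series. The 9 lines are named by their histone, H3.1, H3.2, H3.3, H3mm7, H3mm11, H3mm12, H3mm13, H3mm16 and H3t. C2C12 is a mouse myoblast line. Growing cells were kept in 20% fetal bovine serum and taken before confluence, and differentiated cells were taken 48 h after confluent cells had been moved to 2% horse serum. The lines carry a Tet-inducible GFP-H3 transgene brought in by the Tol2 transposon together with the rtTA transactivator. They were grown with doxycycline and G418, and GFP-positive cells were sorted. The 9 lines share all of this and differ in the H3 protein they carry, whereas WT is the untransfected parental culture and no empty-vector line was analysed here. The transgene, the drugs, the sorting and the separate culture of WT therefore cannot be told apart. The labels do not say whether WT received doxycycline. How WT reads were mapped is not given either, so a difference in mapping cannot be told apart from these. Each line was measured once per state, so every range below is the spread of 9 different lines and not of repeats of WT.

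Values are FPKM (fragments per length of transcript and per number of mapped fragments), compared as log2(FPKM + 1). The 10954 genes with a mean of at least 1 FPKM over the 20 libraries were compared. A gene was counted as below the lines when WT lay under the lowest of the 9 lines in growth and again in the differentiated state, and as above when WT lay over the highest in both. The margin is the distance of WT from the nearest line on the log2 scale, taken in the state where it is smaller, so that a margin of 1 is a factor of 2 in FPKM + 1. With 1 WT library per state no test of WT against the lines was made, and all such comparisons are descriptions.

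Processed pseudogenes, or retrocopies, arise when an mRNA is reverse-transcribed and inserted elsewhere in the genome without its introns. Abundant housekeeping mRNAs, above all those of ribosomal proteins and of the glycolytic enzyme Gapdh, have left many such copies in the mouse genome, so that short reads from these genes match several places. Myoblasts leave the cell cycle when serum is withdrawn, switch on Myog and then the proteins of the contractile apparatus, and fuse into myotubes.

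Genes were therefore told apart by the share of the 30-base words of their exons that recurs elsewhere in the mm9 genome, and genes with at least 50% of repeated words are called genes with many copies. This held for 546 of the 10801 genes that could be matched to a transcript (5.06%). A 30-base word from the middle of the coding sequence of 2 genes far below the lines and of 2 genes with few copies is printed as an example.
Rps12, chr10:23505729-23505758 (minus strand, mm9): gtcaagctggtggaggcactttgtgctgag
Ppia, chr11:6319158-6319187 (plus strand): atctacggagagaaatttgaggatgagaac
Atox1, chr11:55264093-55264122 (minus strand): gagttcaacattgacctgcccaacaagaag
Prickle3, chrX:7242506-7242535 (plus strand): gcggaatactgtgatggctgtggggaacac
The word of Rps12 was found in 22 places of the genome and that of Ppia in 9, while the words of Atox1 and Prickle3 were found only at their own exons. A single word does not stand for its gene, since the middle word of Rpl24, far below the lines, was found only at its own exon and that of D330041H03Rik, with few copies, in 1149 places.

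WT lay below all 9 lines in both states for 1395 genes (12.7% of the genes compared) and above them for 1429 (13%). The directions were far from balanced once a margin was asked for. At a margin of at least 1, 356 genes were below (3.25%) and 28 above (0.256%). Of the 356, 109 had a WT mean under 1 FPKM and passed the filter only through the lines, and 54 were listed at 0 in a WT library. Of the 28, 16 passed only through WT. Genes at the edge of the range show how little separates a call from none. C2cd3 was below with 2.792 against a lowest line of 2.793 FPKM in growth, and Aes, at 197.9 FPKM in WT and in the lowest growing line, was just within. After scaling all libraries to the same median of genes with fewer copies, 1658 genes were below and 1017 above, so the balance of small differences depended on the scaling, while 375 were below and 26 above by at least 1.

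**Figure D1:**
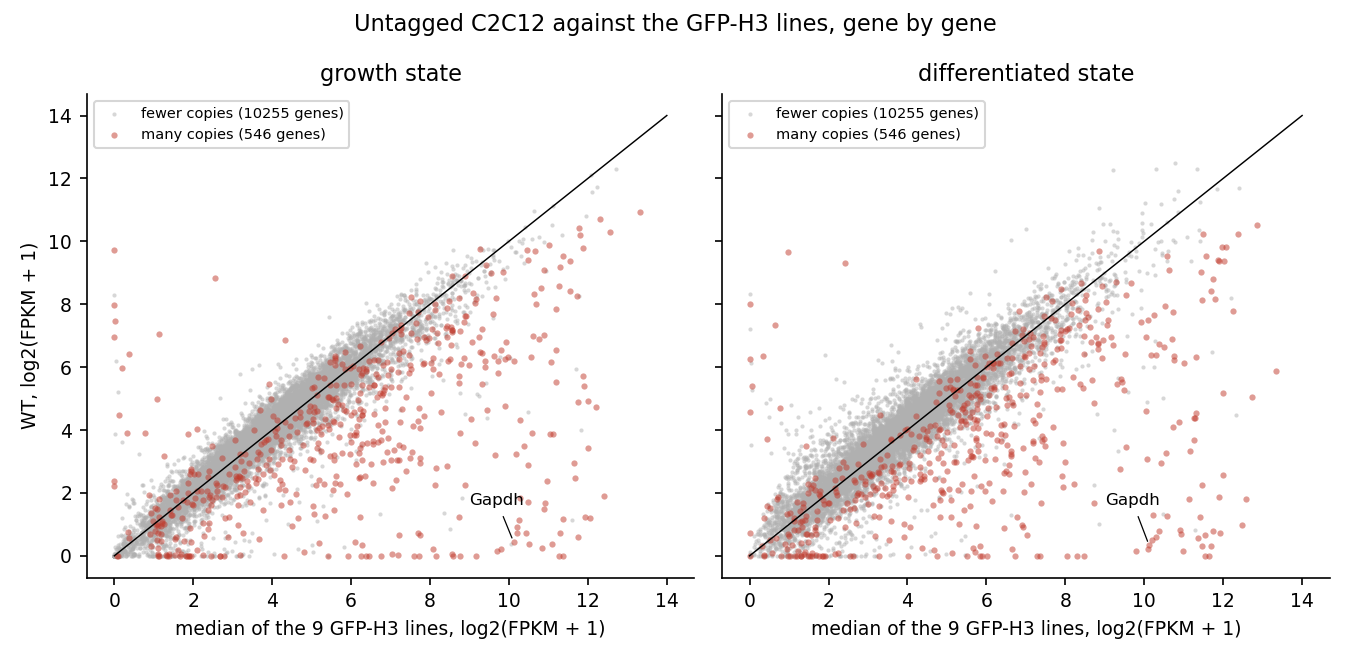
Each point is 1 of the 10801 genes matched to a transcript, with the median of the 9 GFP-H3 lines on the x axis and WT on the y axis, both as log2(FPKM + 1), for growth and for the differentiated state. Genes with many copies in the genome (at least 50% of exon words repeated) leave the diagonal downwards, and at a margin of at least 1 the 356 genes below the lines outnumber the 28 above.

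Among the 356 genes at least 1 below the lines, 338 could be measured for copies and 238 of these (70.4%) had many copies, against 5.06% of all genes. Without a margin they were 381 of the 1348 measured genes below the lines (28.3%). Among the 28 genes above, 8 of 21 measured (38.1%) did. Counting genes by the most repeated coding sequence of any of their isoforms, which was added after the values were seen, raised the share to 87.5% (265 of 303). By that measure it was 7.13% over all genes (753 of 10568). Under 25% of repeated words the difference from the lines showed no steady trend, with growth medians between 0.07 and 0.14. From 25% upward it fell in steps. For genes with 0 to 1% of repeated words, 7.26% were below the lines and the median difference of WT from the median line was 0.10 on the log2 scale in growth and 0.16 in the differentiated state. From 25 to 50% of repeated words, 27.5% were below and the medians were -0.13 and -0.16. Above this the values dropped steeply, with medians of -0.91 and -0.86 at 50 to 75%, and of -1.94 and -2.01 at 75 to 90%. Of the 68 genes with at least 90%, 89.7% were below the lines and the median differences were -3.43 and -3.59. The share of genes above the lines was 13.1 to 16.2% under 25% of repeated words and 1.47% in the highest bin.

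**Figure D2:**
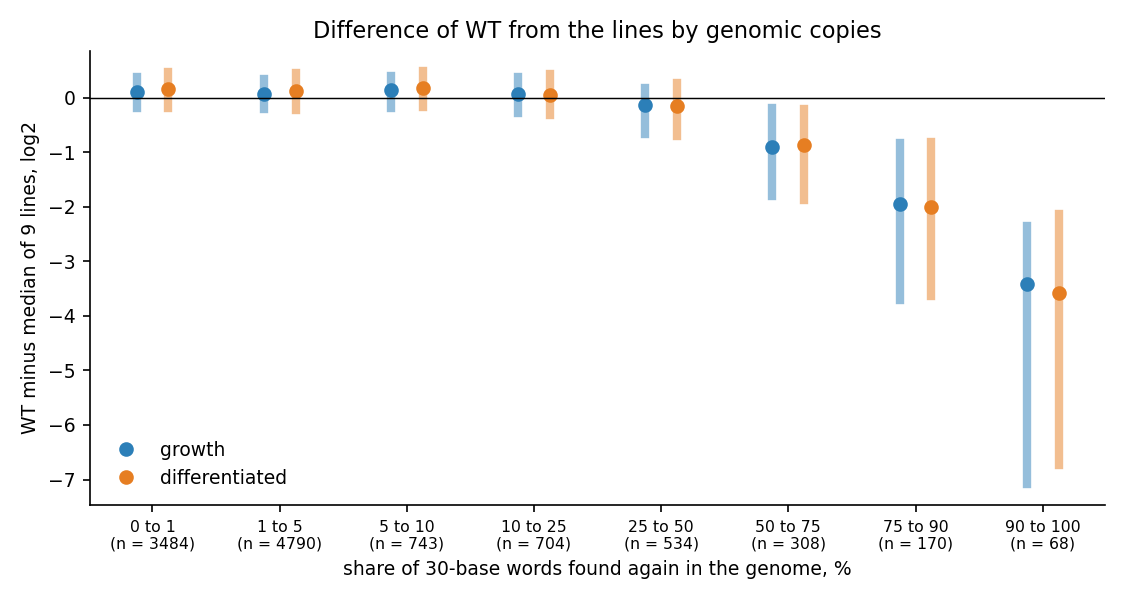
The difference of WT from the median of the 9 lines (y axis, log2 scale) for genes grouped by the percent of exon words that recur in the genome (x axis, with the number of genes), in growth and in the differentiated state. Points are medians and bars run from the lower to the upper quartile of genes, and the medians go from 0.10 and 0.16 in the lowest group to -3.43 and -3.59 in the highest.

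Transcript length ran beside this. Among genes with under 25% of repeated words, 30.1% of the 163 with transcripts under 700 bases were below the lines, with median differences of -0.31 and -0.42, against 4.18% of the 2946 of at least 4000 bases, with medians of 0.15 and 0.22. Genes with many copies were short as a group. Within them, those under 1000 bases had medians of -2.79 and -2.50 and those of at least 2000 bases -0.83 and -0.80, so that long genes with many copies were still lower in WT than short genes with few. The part of length in the result was not tested.

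Among the gene lists examined, ribosomal protein genes held the greatest number of genes at least 1 below the lines. They encode the proteins of the cytosolic ribosome and are among the most abundant mRNAs of a dividing cell. Of the 83 that were compared, 78 were below the lines in both states, 69 of them by at least 1, and 1 was above. The median difference from the lines was -4.65 in growth and -4.98 in the differentiated state, where all genes had 0.05 and 0.09. The summed FPKM of this list was 4.27% of the library in growing WT and 3.62% in differentiated WT, against 22.1 to 27.2% in the growing and 21.8 to 35.6% in the differentiated lines.

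Rpl23a of the large subunit, with 94.73% of its words repeated, stood at 0.530 FPKM in growing WT and at 2584, 3422 and 4418 FPKM (lowest, median and highest) in the growing lines. In differentiated cells it was at 0.651 in WT and at 2419, 3870 and 6422 in the lines. These are nearest-line ratios of 4877 and 3715. Rps12 of the small subunit had 2.77 FPKM in growing WT against 4520, 5394 and 7470 in the lines, and 0.984 against 3749, 5691 and 15520 after differentiation. For Rpl29, at 94.74% of repeated words, the values were 0.165 against 616.6, 889.6 and 1411 in growth and 0.104 against 452.8, 878.6 and 2013 in differentiated cells. WT did not come near any line for these genes in either state. Others were shifted far less. Rps9 had 526.7 FPKM in growing WT against 1600, 1957 and 2285 in the lines and a margin of 1.33, with 40.68% of its words repeated.

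The few ribosomal protein genes that were not below the lines had fewer repeated words in most cases. Rps3 (13.62% of words repeated) was at 646.7 FPKM in growing WT and between 405.4 and 668.7 in the lines, and at 515.9 against 409.3 to 1190 in differentiated cells, within the range both times. Rpl22 and Rps27l were within it too. Rpl30 was above, with 193.8 FPKM against 23.2, 42.6 and 76.8 in growth and 144.4 against 21.8, 41.5 and 82.9 after differentiation, with 48.19% of words repeated. Rpl26 differed among the lines themselves. It was listed at 0 in 8 of the 9 growing lines and in 6 of the 9 differentiated lines, while line H3mm13 had 3299 FPKM after differentiation. WT had 4.18 and 0.662 FPKM of it. Of the 25 ribosomal protein genes with fewer copies by exons, 21 were below the lines all the same, with medians of -3.52 and -3.97. Exon words missed copies in some of these genes. The exons of the transcript taken for Rpl24 had 0.68% of repeated words but the coding sequence of another isoform had 100%, and Rpl24 was at 0.294 FPKM in growing WT and at 924.8, 1058 and 1157 in the lines.

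Gapdh, the glycolytic glyceraldehyde-3-phosphate dehydrogenase that is often used as a reference, lies at chr6:125111872-125115791 (mm9, minus strand, 7 exons) and had 85.84% of its words repeated, each at a median of 58 other places. It was at 0.361 FPKM in growing WT and at 961.1, 1109 and 1827 in the growing lines. In differentiated cells WT had 0.263 and the lines 783.0, 1113 and 2094. WT and the lines were thus apart by a margin of 9.28, and in the lines Gapdh did not pass the test of differentiation (log2 difference -0.07, SE 0.17, adjusted p = 0.76, limma). Ppia, the cyclophilin A gene and another common reference, was at 1.31 FPKM against 3447, 4279 and 4687 in growth and at 0.244 against 2630, 2831 and 3617 after differentiation, with a margin of 10.54.

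Glycolytic genes, Gapdh among them, split by their copies. Of the 18 compared, 6 were below the lines in both states and 0 above, and all 6 were among the 8 with many copies. Of the 10 with fewer copies 0 were below and 0 above. Pgk1 (phosphoglycerate kinase, 94.1% of words repeated) was at 43.5 FPKM in growing WT against 575.6, 635.8 and 781.3 in the lines. Pgam1 (phosphoglycerate mutase) was at 19.3 against 475.5, 522.5 and 558.7. Eno1, which encodes the enolase of most tissues, was at 10.1 against 81.1, 157.9 and 274.3. The muscle enolase Eno3, with 1.24% of repeated words, was at 288.6 in growing WT within the 260.5 to 467.6 of the lines, and at 622.6 in differentiated WT over the 121.6, 254.0 and 511.8 FPKM of the lines.

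A similar contrast was seen between the histone genes H2afz and H2afv. H2afv and the replication gene Mcm2 were chosen after their values were seen. H2afz encodes the histone variant H2A.Z and had 86.54% of its words repeated. It was at 26.2 FPKM in growing WT against 803.1, 947.6 and 1036 in the lines, and at 6.86 against 178.4, 254.0 and 491.4 after differentiation. Its relative H2afv, with 1.87% of repeated words, was at 33.6 against 20.7, 26.7 and 35.2 in growth and at 34.2 against 15.996, 29.94 and 42.96 after differentiation. H2afz was far below every line in both states while H2afv was within. Pcna, the replication clamp, had 64.94% of repeated words and was at 124.5 FPKM against 254.8, 344.9 and 447.1 in growth, a margin of 1.03. Mcm2, a subunit of the replicative helicase with 1.08% of repeated words, lay below the growing lines (55.1 against 68.7, 80.7 and 94.4) but within the differentiated ones (8.90 against 5.36, 9.48 and 20.0).

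Other lists of housekeeping genes were low in part. Of 36 translation factors 20 were below the lines and 2 above. Eef1a1, which delivers aminoacyl-tRNA to the ribosome, had 1667 FPKM in growing WT against 4688, 5031 and 5523 in the lines and remained high in level while below all of them. Of 81 respiratory chain genes 40 were below and 8 above, 13 of them below by at least 1, with median differences of -0.69 and -0.51. Atp5g2, a subunit of the ATP synthase ring with 100% of its words repeated, was at 0.124 against 691.2, 833.1 and 928.7 in growth. Of 76 mitochondrial ribosomal protein genes 33 were below and 8 above, and of 36 proteasome genes 11 were below and 5 above. Respiratory chain genes with fewer copies were below in 30 and above in 8 cases, mitochondrial ribosomal protein genes with fewer copies in 25 and 8, and proteasome genes with fewer copies in 7 and 5. Of all 10255 genes with fewer copies 967 were below and 1387 above, and of all genes 12.7% and 13%.

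The total of the table moved with these genes. The FPKM of all genes added up to 409319 in growing WT and to 465247 in differentiated WT, and to 617396 to 680017 and 583613 to 894105 in the lines. Genes with many copies by exons or by coding sequence accounted for 55227 and 50305 FPKM in WT, where the growing lines had 257770 to 295261 and the differentiated lines 228501 to 456106. All other genes added up to 354092 and 414941 in WT, close under the 355469 to 384756 of the growing lines and within the 355112 to 462154 of the differentiated ones. Across the 10954 genes, Pearson's r of WT with a growing line was between 0.838 (H3.3) and 0.867 (H3mm12), while a growing line had a mean r of 0.965 to 0.983 with the other lines. With the 9721 genes under 25% of repeated words, r with WT was 0.925 to 0.956 and the mean r among growing lines 0.962 to 0.982. In differentiated cells it went from 0.772 to 0.859 over all genes to 0.852 to 0.945. These correlations are over genes that share each library and are given as descriptions.

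The 28 genes above the lines by at least 1 were mostly retrocopies or genes that share sequence with another gene. Of the 28, 19 shared at least 50 of their 30-base words with another gene of the table. The share of all genes with such a partner is not given here. For 15 of the 19 the other gene lay elsewhere in the genome. In 9 of the 15 that other gene was below the lines, where 12.7% of all genes were. Among genes with many copies 69.8% were, and 27.5% of those with 25 to 50% of repeated words. The count is therefore not read as a trait of these pairs. A further 4 shared their words with a gene at the same locus, and 7 had no transcript in the annotation, against 1.4% of all genes. Words from 4 such pairs are printed as examples of close pairs. Other pairs differed more, at 3 positions for Gm13498 and Hsp90ab1, at 5 for Csl and Cs and at 13 for Gm5148 and Rps23. Capitals mark the positions at which the 2 words of a pair differ, and a pair without capitals is identical.
Rplp2-ps1: atgtcatTgctcagggtgttggcaagctgg
Rplp2: atgtcatCgctcagggtgttggcaagctgg
Gm5424: gcacctccgggtctctacacaaaaactcag
Ass1: gcacctccgggtctctacacaaaaactcag
Gm13826: agaggaagtataactggagtgccaaggcta
Rpl37: agaggaagtataactggagtgccaaggcta
Uchl4: GtgcacttTgaatcagggtcaacattgaaa
Uchl3: AtgcacttCgaatcagggtcaacattgaaa
Rplp2-ps1 (chr12:76731924-76732365, minus strand), Gm5424 (chr10:61533871-61535109, plus strand) and Uchl4 (chr9:64083008-64084169, plus strand) have 1 exon each, and Gm13826 (chr5:115552931-115560277, minus strand) has 2, all in mm9.

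Rplp2-ps1 was at 842.5 FPKM in growing WT and at 809.2 in differentiated WT. The lines had 0, 0.000509 and 1.21 in growth and 0, 0.953 and 2.39 after differentiation. Its parent Rplp2, which encodes an acidic protein of the ribosomal stalk, was reversed, with 60.4 FPKM in growing WT against 1966, 3340 and 3678 in the lines and 87.5 against 1720, 3387 and 5553 after differentiation. Gm13826 and Rpl37 of the large subunit behaved alike. Gm13826 was at 453.3 and 631.9 FPKM in WT and at no more than 6.00 and 7.87 in the lines, and Rpl37 was at 34.6 and 36.2 in WT and at no less than 482.5 and 431.7 in the lines. In these pairs WT had the copy high and the parent low, and each line had the reverse.

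Gm5424 and Ass1, which encodes argininosuccinate synthase of arginine synthesis, showed the same exchange in a gene that changed on differentiation. Gm5424 was at 174.3 FPKM in growing and 22.6 in differentiated WT, against at most 0.110 and 0.0187 in the lines. Ass1 was at 7.21 against 58.8, 146.5 and 299.4 in growth and at 1.37 against 10.8, 27.2 and 237.5 after differentiation. In the lines Ass1 fell by 1.88 on the log2 scale (SE 0.45, adjusted p = 0.0014, limma). The WT change was -2.89 for Gm5424 and -1.79 for Ass1. Uchl4 was at 13.7 FPKM in growing WT and at no more than 0.114 in the lines, and Uchl3, a ubiquitin hydrolase, was at 23.8 against 49.2, 53.3 and 68.0, below the lines in both states.

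Not every parent was low. Gm13498 was at 72.6 and 68.6 FPKM in WT and at no more than 0.102 and 0.125 in the lines, while Hsp90ab1, the cytosolic chaperone with which it shares 4.35% of its words, was within the lines at 1416 against 1108, 1345 and 1563 in growth. Acot10 was at 35.9 against at most 0.142, and its parent Acot9, a mitochondrial acyl-CoA thioesterase, was within the lines at 64.5 against 64.5, 77.7 and 98.8.

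**Figure D3:**
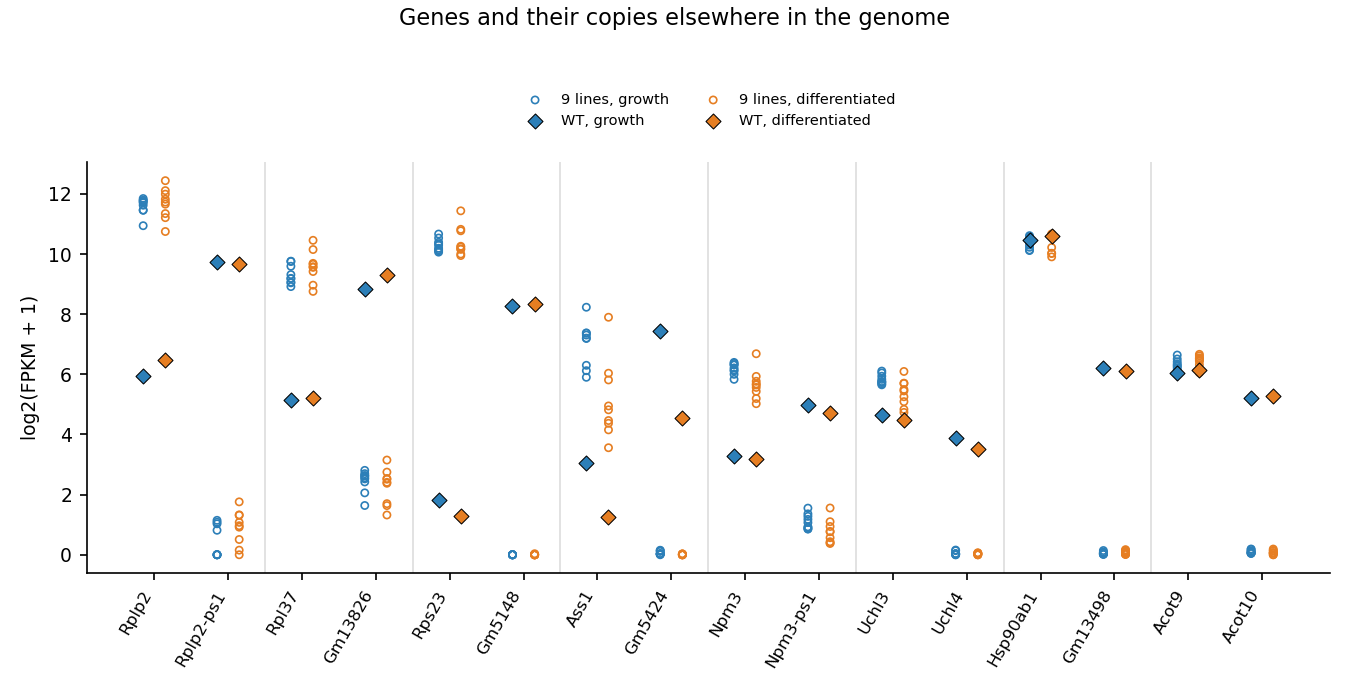
Level in every library (y axis, log2(FPKM + 1)) for pairs of a gene and a copy with which it shares exon words, with the 9 GFP-H3 lines as open circles and WT as filled diamonds, growing cells in blue and differentiated cells in orange. For Rplp2, Rpl37 and Ass1 the copy is high and the parent low in WT and the reverse holds in all 9 lines.

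Some genes below the lines overlapped another gene, at about the share seen over all genes. Of the 356, 33 (9.27%) had fewer copies but shared exon words with an overlapping gene, against 8.6% of all genes, and for all 33 that gene lay on the opposite strand. Most overlaps were of this kind among genes with under 25% of repeated words by exons and by coding sequence. Opposite-strand overlaps there held 351 and 490 genes (the lower and the higher of their pair), and same-strand overlaps 26 and 39. For the 33, the neighbour was within the range of the lines in 18 cases. It was above them by less than 1 in 8, by at least 1 in 2, and below them in the others. Among the genes under 25%, 7.41% of the 351 with the lower level of their opposite-strand pair were at least 1 below the lines. The shares were 1.02% for the 490 with the higher level and 0.163% for the 8572 genes without an overlap. The sources used here do not say whether the libraries kept strand, so reads of such pairs cannot be told apart.

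Snx22, a sorting nexin, was at 0.282 FPKM in growing WT against 28.4, 30.9 and 40.9 in the lines, and at 0.413 against 26.3, 40.3 and 132.2 after differentiation. Its end overlaps Ppib, which encodes cyclophilin B and was above the growing lines at 209.1 against 114.6, 124.4 and 158.3. Abi3 was at 2.27 against 11.2, 24.7 and 34.3 in growth, and the phosphatase gene Phospho1 on the other strand at 60.3 against 3.06, 10.2 and 15.05. In both pairs growing WT lay under all lines for one gene and over them for its neighbour, although in the lines Abi3 was the gene with the higher level of its pair. Map3k12, a kinase of the JNK pathway, was at 3.39 against 17.8, 23.8 and 34.5, and its neighbour Pcbp2, an RNA-binding protein, was within the lines at 201.6 against 157.2, 206.0 and 274.7.

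With many copies, shared exons, intermediate copies and unmatched names set aside, 14 of the 356 genes remained (3.93%), of 8572 such genes in all. The named genes of this set were singled out after their values were seen. For 11 of the 14 the median line was under 10 FPKM in both states, and 4 were listed at 0 in both WT libraries. Atox1, a copper chaperone, was the most abundant. It was at 96.7 FPKM in growing WT against 250.1, 297.9 and 351.6 in the lines and at 73.3 against 174.2, 234.2 and 324.0 after differentiation, 2.59 and 2.38 times lower than the nearest line. Prickle3, of the planar cell polarity family Prickle, was at 1.01 against 16.7, 20.3 and 32.8 in growth and at 0.295 against 6.70, 9.93 and 24.9. Smim1, which encodes a small membrane protein, was at 0.118 against 5.45, 6.97 and 8.71. Snhg1, a host of small nucleolar RNAs, was at 35.5 against 73.3, 88.6 and 134.7 in growth, with a margin of 1.03. That WT lay under all 9 lines in both states for these 4 genes follows from how the set was chosen.

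In the other direction 4 genes of this set were at least 1 above the lines. Gm13498 and Csl were among the retrocopies with a parent elsewhere, so that Hnrnph3 and Pex13 remained. Hnrnph3, an hnRNP protein of RNA processing, was at 32.5 FPKM in growing WT against 7.69, 11.8 and 14.5 and at 31.6 against 6.36, 10.0 and 13.3 after differentiation, 2.24 and 2.37 times over the nearest line. Pex13, of the peroxisomal import machinery, was at 19.5 against 5.28, 6.16 and 9.23 and at 29.95 against 9.96, 11.6 and 14.1. Their margins of 1.11 and 1.004 were a little more than the 1 by which the set was chosen. Under the margin came Hnrnpd, another RNA-binding hnRNP protein (76.2 against 18.7, 27.9 and 41.2 in growth), Msx1, a homeobox factor that holds back muscle differentiation (6.16 against 1.13, 1.54 and 1.83), and Fzd7, a Wnt receptor (26.8 against 9.84, 13.3 and 15.4). On the deposited scale, 7.37% of the 8572 genes were below and 13.8% above the lines in both states without regard to a margin.

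**Figure D4:**
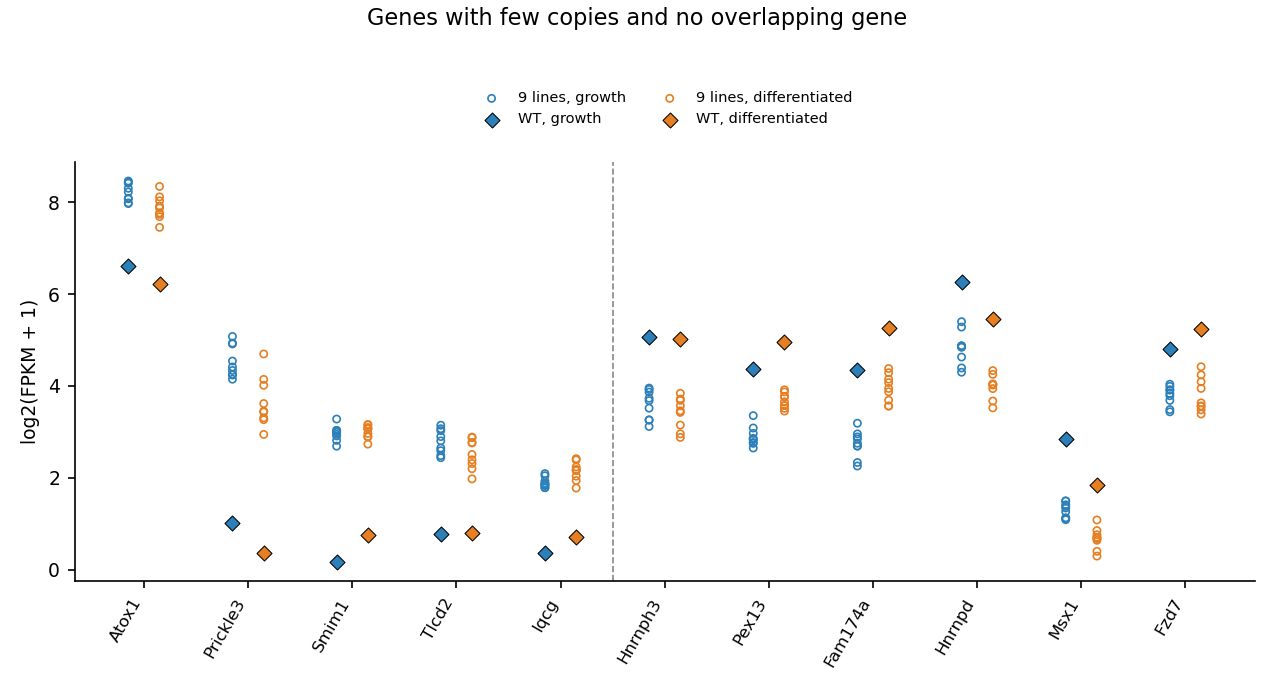
Level in every library (y axis, log2(FPKM + 1)) for genes with few copies and no overlapping gene, with genes below the lines on the left and genes above on the right, the 9 GFP-H3 lines as open circles and WT as filled diamonds, growing cells in blue and differentiated cells in orange. Atox1 and Prickle3 lie under all 9 lines in both states, and Hnrnph3 and Pex13 over them.

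Of 10 myoblast and myotube markers, 0 were below and 0 above the lines in both states, where 12.7% and 13% of all genes were, and the counts of the lists that follow are to be read against the same shares. Myod1, the myogenic master factor, was at 34.7 FPKM in growing WT within 1.61, 28.3 and 110.1 of the lines, and Des, the muscle intermediate filament, at 288.0 within 165.4, 262.9 and 496.8. Of 8 adipocyte markers 2 reached the filter, of 9 bone and cartilage markers 2, of 9 blood and endothelial markers 2 and of 6 smooth muscle markers 5. The mean level of these 5 was 4.398 on the log2 scale in growing WT, under the 4.44 to 5.84 of the lines, and 5.25 in differentiated WT, within 4.09 to 5.74. Of 39 muscle genes, 0 were below and 2 above the lines in both states, and of 42 genes of DNA replication and mitosis 2 and 6. For 21 endoplasmic reticulum chaperones both counts were 0, although 12 of the 21 (57.1%) were above the growing lines, where 25.9% of all genes were. Hspa5, the main chaperone of this compartment, was at 406.3 FPKM against 239.7, 289.8 and 324.4 in growth and within the lines at 665.4 against 204.9, 576.1 and 3688 after differentiation. Of 32 targets of the stress factor ATF4, 4 were below and 0 above. Among 37 extracellular matrix genes these counts were 3 and 0, and among 21 cholesterol synthesis genes 2 and 2. For 15 interferon-stimulated genes they were 2 and 1, and for 8 replacement histone genes 2 and 0. Of 12 genes in use as references 2 were below and 2 above, and their mean level of 6.20 in growing WT was under the 6.39 to 7.21 of the lines. The median difference of the 12 from the lines was 0.20 in growth and 0.21 in the differentiated state, and 3 of them had many copies.

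The change of WT and of each line was taken as differentiated minus growing cells, which sets each culture against itself. The limma test of the lines did not use this pairing. In the 9 lines, 971 genes rose (8.86%) and 937 fell (8.55%) by at least 1 on the log2 scale at an adjusted p below 0.05 (limma, 9 against 9 libraries). WT was left out of this fit, and its change rests on the same 2 libraries as its levels. Of the 971, WT was higher after differentiation for 959 and by at least 1 for 716, and of the 937 it was lower for 927 and by at least 1 for 743. Over the 10954 genes Pearson's r of the WT change with the mean change of the lines was 0.88, a description over genes that share the libraries. The WT change lay above the 9 changes of the lines for 1542 genes (14.1%) and below them for 1174 (10.7%). It did so by at least 1 for 50 (0.456%) and 12 (0.11%). Without line H3mm12 the 50 became 106.

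Muscle genes had the greater change in WT, as seen in bulk RNA, in which more differentiated cells and more RNA per cell cannot be told apart. The mean change of the 39 muscle genes was 5.88 in WT and 3.08 (H3mm7), 4.42 and 5.39 (H3mm12) as the lowest, median and highest of the lines. Of the 39, 33 rose in the lines, and for 22 the WT change was above that of all 9 lines, where the share over all genes was 14.1%. In level, 16 of the 39 (41.0%) were above the differentiated lines and 1 below, against 22.5% and 17.5% of all genes. The mean level of the 39 in differentiated WT, 8.04 on the log2 scale, was within the 5.90 to 8.06 (H3mm12) of the lines. Tnnc2, the troponin C of fast muscle, was at 3.101 FPKM in growing WT within 0.570, 2.89 and 8.33 of the lines and reached 4882 in differentiated WT against 310.3, 595.2 and 2648. Its WT change of 10.22 compared with 6.00 to 9.41 in the lines. Myh3, the embryonic myosin heavy chain, was at 0.235 FPKM in growing and 1060 in differentiated WT, over the 54.9, 98.4 and 711.7 of the differentiated lines. Myog, the factor that drives terminal differentiation, did not exceed the lines, at 1023 FPKM against 328.7, 513.5 and 1151.

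**Figure D5:**
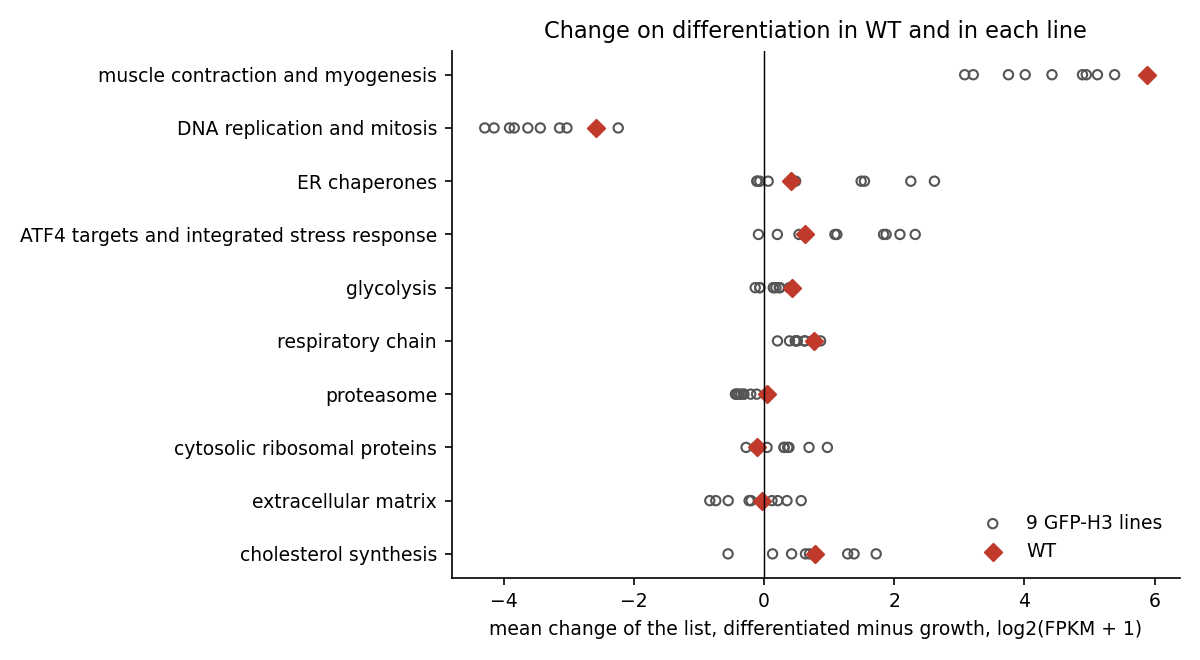
The mean change on differentiation (x axis, differentiated minus growth on the log2(FPKM + 1) scale) of 10 gene lists, with open circles for the 9 lines and red diamonds for WT. The muscle list stands at 5.88 in WT above the 3.08 to 5.39 of the lines, and the replication list at -2.59 within the -4.29 to -2.24 of the lines.

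Cell cycle genes went down in all cultures. The mean change of the 42 replication and mitosis genes was -2.59 in WT and -4.29 (H3mm11), -3.63 and -2.24 (H3.1) in the lines, so WT was within the range and above 8 of 9 lines. All 42 fell in the lines. Their mean level in differentiated WT, 3.1001 on the log2 scale, was within the 1.48 to 3.51 of the lines. The stress lists were within the range as well, with a mean change of 0.62 in WT against -0.08 to 2.32 for the ATF4 targets and of 0.41 against -0.11 to 2.62 for the chaperones, H3mm7 being the highest line in both. Glycolysis genes (0.43 against -0.13 to 0.39) and proteasome genes (0.04 against -0.44 to -0.11) lay just above the lines. So did the 5 smooth muscle genes, with 0.85 against -1.45 to 0.29. Ribosomal protein genes changed by -0.11 on average in WT, within -0.28 to 0.97 in the lines, although their level was far apart.

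Several of the genes that exceeded the lines most in their change were muscle genes that were near 0 in growth. Mef2c, a transcription factor of muscle and heart, was at 0.277 FPKM in growing WT and at 26.6 in differentiated WT, where the lines had 0.228, 1.07 and 4.15. Its change of 4.44 stood against 0.21 to 2.26 in the lines, where it rose by 1.08 (SE 0.26, adjusted p = 0.0012, limma). Fst, the secreted activin and myostatin antagonist follistatin, reached 82.9 FPKM in WT against 0.575, 2.75 and 20.7, with H3mm12 the highest in change at 3.91 and WT at 5.81. Actn2, which crosslinks actin at the Z-disc, reached 17.6 against 0.192, 0.746 and 3.38. In all 3 genes differentiated WT was over every line. Myh1, a fast myosin heavy chain, was at 30.4 against 0.0802, 0.424 and 4.90, with 36.24% of its words repeated.

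Gspt1, the translation termination factor eRF3a, exceeded the lines in change by the most (6.11), from a growth value of 0. It was listed at 0 in growing WT, where the lines had 36.6, 41.6 and 69.3 FPKM, and was at 53.5 in differentiated WT against 24.3, 28.8 and 32.2. In growth 16 genes were listed at 0 in WT with at least 10 FPKM in every line, and in differentiated cells 13 were. Most of them had most of their words repeated, such as Sumo2 (95.99%), a ubiquitin-like modifier, which was at 0.0373 FPKM in growing WT and listed at 0 in differentiated WT against 269.3 to 544.7 and 180.1 to 314.1 in the lines. Gspt1 had 8.43% and shares exon words with the overlapping gene 2610020C07Rik.

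Genes whose change in WT was below that of all lines were fewer. A930016O22Rik lies on the strand opposite Ckm, the muscle creatine kinase. It rose in the lines by 4.44 (SE 0.28, adjusted p = 7.2e-11, limma) to 9.12, 16.03 and 53.3 FPKM, and was at 0.205 in differentiated WT, while Ckm was within the lines there at 401.0 against 94.9, 166.2 and 606.8. Cpne8, a copine of calcium-dependent membrane binding, had 17.0 FPKM in growing WT against 30.9, 44.1 and 57.1, and 6.61 in differentiated WT against 46.2, 86.7 and 154.5. Its change was -1.24 in WT and 0.27 to 1.63 in the lines. Sema3c, a secreted semaphorin, rose in the lines by 2.53 (SE 0.20, adjusted p = 1.2e-09, limma) with a range of 1.80 to 3.25, and its change was 0.83 in WT. Growing WT was over the lines for it, at 15.9 against 3.66, 6.90 and 9.17, and differentiated WT was within them. Anpep, an aminopeptidase of the cell surface, went from 31.4 to 19.1 FPKM in WT, a change of -0.69, and by 0.26 to 1.32 in the lines.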

How the data were processed

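mRNA-Seq was made from polyadenylated RNA of C2C12 cells without a transgene and of 9 GFP-H3 lines. Per the labels, the submitters' processing notes name mm9, TopHat2 2.0.8, Cuffdiff and Cufflinks 2.0.1, and the authors deposited FPKM values in 1 table. How WT reads were mapped, read numbers and the handling of reads with several places are not given in the sources used here. Because FPKM keeps no depth, no counting interval was computed, and no 2 columns were identical (0 pairs).

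Values were compared as log2(FPKM + 1) for genes with a mean of at least 1 FPKM. Differentiation in the lines was tested with limma 3.58.1 (trend and robust) in R 4.3.3, 9 against 9 libraries, with Benjamini-Hochberg adjustment over 10954 genes. Libraries are single cultures of different lines, so p-values measure the spread between lines. The same line's 2 libraries deviated together (r of 0.21 to 0.44 for 9 of 9 lines), and the fit with the line as a block called 973 and 940 genes. Genes were matched to GENCODE M1 by symbol (10383) or another name (418), and 153 were not matched. Words of 30 bases of the transcript with the longest coding sequence were counted on both strands of mm9, and 50 shared words counted as shared exons.

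Named genes were the 10 furthest below and above the lines with many and with fewer copies at a margin of 1, Gapdh, list members at that margin, genes nearest the edge of the range, and those with the greatest excess of the WT change. Eno3, H2afv, Mcm2, Rps9, Rpl29, the overlapping pairs, the retrocopy parents, Msx1, Fzd7 and other genes with few copies were chosen after their values were seen. The comparison and gene lists were chosen with earlier results of these data known. Alternatives covered the pseudocount, filters, normalization, the measure of copies and each line left out. The limma step was tested on simulated data. Other assays of the series, the H3 genes and 63 replication-dependent histone genes were not analysed here. Tables were computed in pandas 2.3.3, numpy 2.4.6 and scipy 1.17.1 under Python 3.11.15, and figures drawn with matplotlib 3.10.9.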

Additional observations from a re-analysis of the deposited data

Results flagged for a closer look

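A single line stood apart from the other 8 in the mean level of a gene list (Dixon's test) in 3 of 32 lists and states, where chance gives about 1 in 20. The mean log2 level of translation factors in growing cells was 8.18 in line H3t, above the other lines. That of replacement histones in differentiated cells was 5.49 in line H3.1, above the other lines. The mean of the 12 reference genes in growing cells was 6.39 in line H3mm11, below the other lines, and Ywhaz, a member with 53.79% of its words repeated, was listed at 0 in that library and at 188.9 to 617.5 FPKM in the other growing lines.

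For 5 results WT moved on differentiation in the direction opposite to all 9 lines, and the difference was not tested, since WT had 1 library per state. The mean change of the proteasome genes was 0.0427 in WT and negative in every line. The change of Gspt1 was 5.77 in WT and negative in every line, with Gspt1 listed at 0 in growing WT. The changes of Cpne8 (-1.24), Plin4 (-1.06) and Anpep (-0.69) were negative in WT and positive in every line. Over all genes compared, 120 went up in WT and down in all 9 lines, and 126 the other way.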

How the results depend on the processing

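Of the values that answer a comparison, 205 stayed close to those reported and 37 did not. Among values of single genes, 2797 stayed close, 167 moved and 3 turned. The share of genes with many copies among those at least 1 below the lines was 70.4%. With pseudocounts of 0.1 and 0.01 FPKM it was 62.8 and 62.3%. It was 76.2% for genes averaging at least 1 FPKM both in WT and in the lines, and 79.8% without genes that share exons with a neighbour. With many copies set at 25 and 75% of repeated words it was 82.2 and 45.3%, against 10.0 and 2.2% of all genes. By coding sequence it was 87.5%, against 7.13% of all genes. The median difference of genes with many minus fewer copies was -1.46 in growth and -1.44 in the differentiated state. In the same order it was -1.67 and -1.75, -1.68 and -1.77, and -1.35 and -1.33. Without overlapping genes it was -1.51 in growth. At 25% of words it was -0.64 and -0.71, at 75% -2.54 and -2.60, and by coding sequence -1.09 and -1.04. It was 0.0 and 0.0 without a filter, where all 22489 genes entered and only 10954 of them averaged at least 1 FPKM. The medians were -1.75 and -1.78 for genes averaging at least 5 FPKM, and -1.32 and -1.34 with quantile normalization. They were -1.35 and -1.35 without genes listed at 0 in WT. Genes at least 1 above the lines (28) numbered 12 with at least 1 FPKM in both and 65 with quantile normalization. Genes whose WT change exceeded the lines by at least 1 (50) numbered 86 and 113 with the smaller pseudocounts, 23 with at least 5 FPKM, and 51 to 106 with each line left out, the highest without H3mm12. Those below by at least 1 (12) numbered 26 and 42 with the smaller pseudocounts and 19 with quantile normalization. The excess of Gm11149 turned to -0.61 with a pseudocount of 0.01, and the margins of Eef1a1 and Rps14 to -0.0864 and -0.0333 with quantile normalization. The cause was not tested for any of these. The line as a block, or replicate block, gave 973 and 940 calls in place of 971 and 937. Only these counts were taken from that fit, and values of single genes were not compared. Depth is unknown, so a value at or near 0 in WT cannot be given a counting limit, and 1 WT library per state leaves the spread of WT unmeasured.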
